A study of Mus musculus with 12 samples.

Results

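The proteasome is the particle that degrades ubiquitin-tagged proteins in eukaryotic cells, and its subunit genes were taken from the expression table by symbol: every gene named Psma, Psmb, Psmc, Psmd or Psme followed by a number, without the interferon-induced catalytic forms Psmb8, Psmb9 and Psmb10. Of the 21671 genes of the table, 43 had such a symbol and 40 were kept. The cells were 3T9MycER, an immortalized line of mouse embryonic fibroblasts that constitutively makes MycER, a Myc chimera that 4-hydroxytamoxifen (OHT) switches on. Total RNA was sequenced in 12 libraries, 2 in each of 6 groups, which had DMSO (the solvent), VP or Y27, each alone or together with OHT. VP is verteporfin, an inhibitor of the YAP-TEAD transcription factors, used at 20 µM, and Y27 is Y27632, an inhibitor of the ROCK kinases that keep up tension in the actin cytoskeleton, used at 50 µM, both for 8 hours. All 6 groups carry MycER, so the controls do too, and the labels give no dose or time for OHT. The study asked whether the Myc response of fibroblasts depends on YAP activity and on cytoskeletal tension. The series text calls the cells quiescent and confluent, the labels name a medium with 10% serum, and the paper describes such treatments in serum-starved subconfluent cells. Which of these holds for the 12 libraries was not settled here. Nothing says that the 2 libraries of a group came from separate cultures, so p-values measure only the spread between these libraries, which may be technical.

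The core of the proteasome, the 20S particle, is a barrel in which rings of alpha subunits enclose rings of beta subunits. In most cells only the beta subunits Psmb5, Psmb6 and Psmb7 cut proteins. The 19S particle caps the barrel. Its base holds the ATPases Psmc1 to Psmc6, which unfold the substrate and thread it into the core, and its lid holds Psmd14, which removes the ubiquitin chain. The activators Psme1 to Psme4 bind the ends of the core in place of the 19S particle. In mammalian cells the transcription factor Nfe2l1 raises many subunit genes together when proteasome activity is short, and its relative Nfe2l2 acts on some of them under oxidative stress, both through a DNA element called the antioxidant response element (ARE).

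By role, the 40 genes were 8 of the alpha ring, 4 noncatalytic and 4 catalytic beta subunits, 6 ATPases of the 19S base, 3 other subunits of the base, 8 lid subunits, 3 chaperones that help to assemble the base, and 4 activators. A mean of at least 0.5 RPKM (reads scaled to the length of the gene and the total of the library) was required for a test, and 38 of the 40 reached it. Psma8, the alpha subunit of the testis, had 0 to 0.0257 RPKM, and Psmb11, the catalytic subunit of the thymus, had 0.221 to 0.369 RPKM.

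Every RPKM value of 1 or more in the table had lost its decimal sign, which was set back by the rule that a value stands for a whole number of reads. For the members, all 198 means over a pair of groups that could be compared had the digits of other deposited columns, the mean normalized counts. That comparison does not see a shift of all 12 libraries of a gene together. For Psma2 the place of the sign was a near tie, so its level is less certain than its changes. The libraries held 21857777 to 30856488 reads, and genes took 30.38% to 36.0% of a library. The tested members had 194 to 2593 reads in a library. Of 17009 genes of 1000 bases or more, 1 went above 2 reads per base in any library, and the highest member reached 1.22. The part of this ceiling in the levels and in the changes between groups was not tested. The members also moved together between the 2 libraries of some groups. Replicate 2 was below replicate 1 for 35 of the 38 tested members in DMSO and 37 in DMSO + OHT but for 1 in VP, beside 80.3%, 61.3% and 53.8% of all tested genes. It was below for 21, 23 and 10 members in VP + OHT, Y27 and Y27 + OHT, beside 47.7%, 34.4% and 65.2% of all tested genes. The summed level of 7 fibroblast markers was 173 to 177 RPKM in DMSO, 90.01 to 95.7 in VP and 205 to 214 in Y27, with Thy1 at or near 0 in every library. Of 7 macrophage markers 6 were in the table, with sums of 2.98 to 3.42 RPKM in DMSO, 8.97 to 9.25 in VP and 2.47 to 2.62 in Y27. These sums came from Cd14 and Cd68, while Ptprc, Csf1r, Emr1 and Itgam were near 0. Markers of epithelial, endothelial, muscle and T cells summed to at most 0.146 RPKM in any library. The part of these shifts in the results below was not tested. In bulk RNA, fewer cells of a kind and less RNA per cell cannot be told apart.

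Promoter windows from RefSeq (mouse build GRCm38.p6, 250 bases before to 50 after the start of the gene) were found for 33 of the 40 genes, all but Psma8, Psmb1, Psmb2, Psmb7, Psmc3, Psmd3 and Psmd7. The ARE core, spelled TGACNNNGC and searched on both strands, was found in 6 of the 33, or 18.2%, beside 15.2% of the 15638 genes of the table that had a window. The E-box CACGTG, which reads the same on both strands and is bound by Myc with its partner Max, was found in 3, or 9.09%, beside 9.39%. The TEAD core CATTCC was found in 4, or 12.1%, beside 15.3%, and the CCAAT box in 13, or 39.4%, beside 42.2%. A match is a run of letters and not a bound site.

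The 3 members with an E-box are shown because OHT activates a Myc protein, with the E-box in capitals and, in Psmd9, the ARE core as well. Each run is 100 bases, 5′ to 3′ on the strand of the gene, here the plus strand: chr9:54950672-54950771 for Psma4, chr5:123228090-123228189 for Psmd9 and chr11:101316113-101316212 for Psme3.
Psma4: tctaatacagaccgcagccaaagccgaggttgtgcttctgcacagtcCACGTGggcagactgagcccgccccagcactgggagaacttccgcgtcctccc
Psmd9: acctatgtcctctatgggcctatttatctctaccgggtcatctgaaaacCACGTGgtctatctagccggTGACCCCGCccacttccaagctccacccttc
Psme3: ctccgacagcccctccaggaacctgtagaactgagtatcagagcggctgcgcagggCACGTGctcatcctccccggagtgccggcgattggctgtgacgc

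The other 5 members with an ARE core are shown because the level of Nfe2l2 differed between VP and DMSO, with the core in capitals. Psmb5 lies on the minus strand, at chr14:54617996-54618095. The others lie on the plus strand, at chr11:70525257-70525356 for Psmb6, chr14:45329574-45329673 for Psmc6, chr11:107479278-107479377 for Psmd12 and chr11:30771677-30771776 for Psme4. In Psmc6, Psmd12 and Psme4 the core reads on the strand opposite to the gene.
Psmb5: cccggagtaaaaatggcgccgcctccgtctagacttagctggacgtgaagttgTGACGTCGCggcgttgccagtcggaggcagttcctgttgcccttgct
Psmb6: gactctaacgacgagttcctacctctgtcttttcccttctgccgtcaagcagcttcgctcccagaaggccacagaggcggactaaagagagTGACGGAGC
Psmc6: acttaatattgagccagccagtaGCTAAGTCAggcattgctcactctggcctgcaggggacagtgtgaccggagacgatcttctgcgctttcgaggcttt
Psmd12: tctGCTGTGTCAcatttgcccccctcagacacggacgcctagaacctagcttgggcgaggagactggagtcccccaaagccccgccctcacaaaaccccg
Psme4: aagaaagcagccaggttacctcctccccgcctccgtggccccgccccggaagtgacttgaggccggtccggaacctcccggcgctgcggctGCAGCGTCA

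Most subunit genes were expressed above the median of all genes. Their median level was 18.5 RPKM, beside 6.18 for all 11104 tested genes, and 35 of the 38 lay above the latter. The highest mean was that of Psmb4, a noncatalytic beta subunit, at 41.7 RPKM, and the lowest that of Psmd11, a lid subunit that clamps the 19S particle onto the core, at 4.65, so the means spanned an 8.98-fold range. Levels were most even among the ATPases, from 16.5 RPKM for Psmc4 to 30.7 for Psmc3, and the base subunits Psmd1 (14.7) and Psmd2 (29.2), followed by the alpha ring, from 13.8 for Psma1 to 28.9 for Psma4. The noncatalytic beta subunits ran from 8.13 RPKM for Psmb2 to 41.7 for Psmb4, a 5.13-fold range. The lid ran from 4.65 for Psmd11 to 24.6 for Psmd6. Among the chaperones Psmd9 had 5.99, Psmd10 7.21 and Psmd5 17.8 RPKM. Among the activators Psme4 had 5.77 and Psme1 32.1 RPKM.

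**Figure D1:**
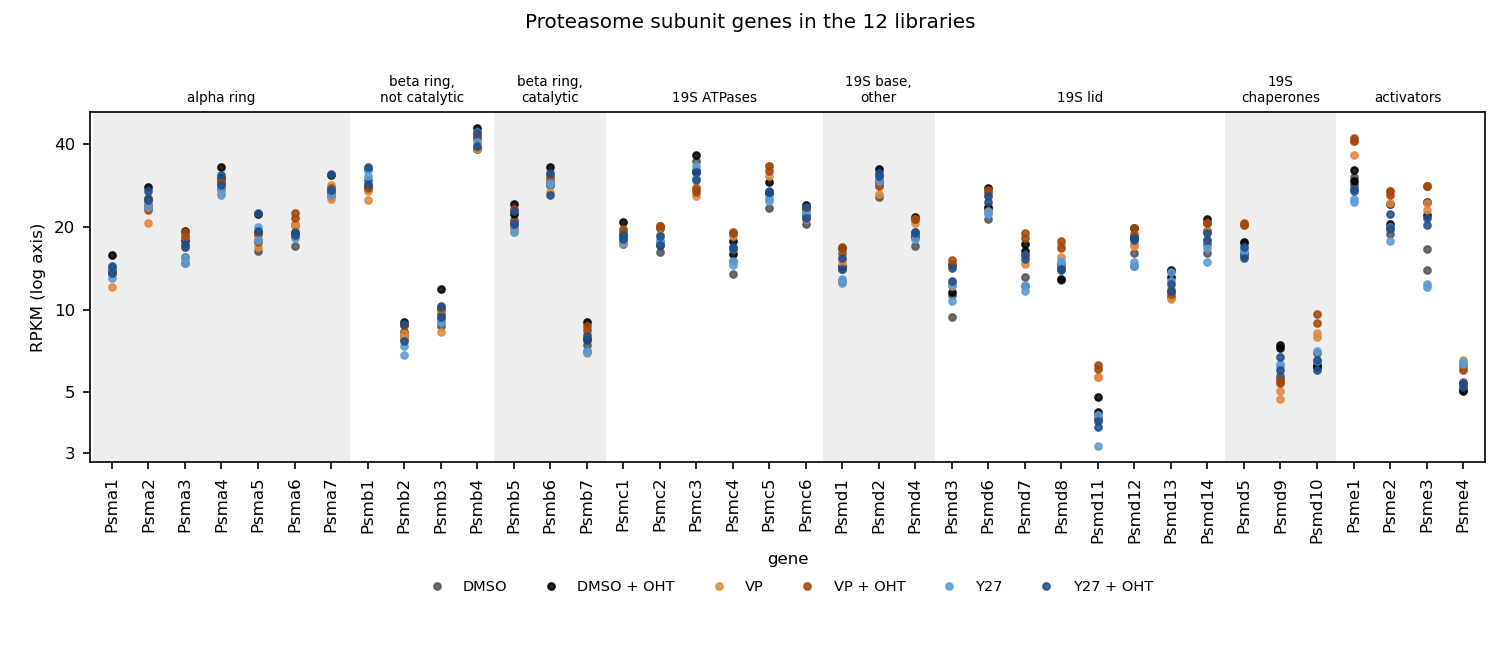
RPKM (log axis) of the 38 tested proteasome subunit genes, ordered by role, with 1 point per library coloured by group. The 12 points of a gene lie close together beside the 8.98-fold range between the means of genes, with the widest scatter for Psme3 and Psmd11.

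The catalytic subunits did not pass the test in any comparison with all 12 libraries, and Psmb7 passed for OHT in DMSO without DMSO + OHT replicate 2 (log2 change 0.29, limma adjusted p = 0.0275). Psmb5, which cuts after hydrophobic residues, read 21.3 and 19.8 RPKM with DMSO alone, 19.1 and 19.8 with VP, and 19.2 and 20.3 with Y27. With OHT added, the pairs of Psmb5 were 24.3 and 22.4 (DMSO), 20.8 and 23.2 (VP), and 20.4 and 22.9 (Y27). Its DMSO + OHT libraries lay above those of DMSO, and its VP and Y27 libraries overlapped DMSO. Psmb6, which cuts after acidic residues, read 31.0 and 28.4 RPKM with DMSO alone, 26.7 and 29.5 with VP, and 28.8 and 29.0 with Y27. With OHT added, the pairs of Psmb6 were 33.1 and 28.6 (DMSO), 30.3 and 29.2 (VP), and 26.2 and 31.4 (Y27). All 5 of these groups overlapped DMSO alone. Psmb7, which cuts after basic residues, read 7.40 and 7.08 RPKM with DMSO alone, 6.97 and 8.14 with VP, and 7.04 and 6.996 with Y27. With OHT added, the pairs of Psmb7 were 9.04 and 7.79 (DMSO), 8.69 and 8.45 (VP), and 7.77 and 8.04 (Y27). The DMSO + OHT libraries of this gene lay above those of DMSO alone, VP overlapped DMSO, and Y27 lay just below DMSO. Of all tested genes 40.8% had both DMSO + OHT libraries above both of DMSO, and 44.9% had both Y27 libraries below. For DMSO + OHT minus DMSO the 95% confidence intervals of the log2 change were 0.01 to 0.35 for Psmb5 (limma adjusted p = 0.0985), −0.16 to 0.26 for Psmb6 (0.724) and 0.02 to 0.36 for Psmb7 (0.0819). For VP minus DMSO the 95% confidence intervals of the log2 change were −0.24 to 0.10 for Psmb5, −0.29 to 0.13 for Psmb6 and −0.12 to 0.22 for Psmb7, and for Y27 minus DMSO they were −0.22 to 0.12, −0.25 to 0.17 and −0.21 to 0.13. RefSeq lists 6 pseudogenes that bear the names of 4 members (Psma5, Psmb5, Psmb6 and Psmb7), and the sources used here do not give how reads that match several places were counted. In the GENCODE annotation 9 members share exon bases with another gene, 7 of them with a gene on the opposite strand, among them Psmb7 with Nek6 (253 bases) and Psmd13 with Sirt3 (152 bases). The libraries do not keep strand, so such reads cannot be told apart.

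In solvent-treated cells OHT went with higher levels of a share of members no larger than that of all genes. The activator Psme3 changed most. Of the 8 lid genes 4 were higher, but the calls of Psmd3 and Psmd14 were lost under both other scalings. No group had OHT without MycER, so an effect of OHT alone cannot be told apart from that of MycER. With limma on log2(RPKM + 1), fitted across all 12 libraries with Benjamini-Hochberg adjustment over the 11104 genes, 8 of 38 members passed an adjusted p of 0.05, or 21.1%, and all 8 were higher with OHT. Of all tested genes 34.1% passed, 24.1% as higher and 9.97% as lower. The members that passed were 4 of 8 lid subunits (Psmd3, Psmd7, Psmd12 and Psmd14), the activator Psme3, the chaperone Psmd9, the ATPase Psmc4 and the alpha subunit Psma3. The median log2 change was 0.14 over the members and 0.06 over all genes. These medians depended on the scaling: they were 0.03 and −0.04 with median ratios, and 0.04 and −0.02 with quantile normalization.

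Psme3 forms an activator found mainly in the nucleus. It had 16.6 and 13.9 RPKM in DMSO and 24.6 and 22.1 in DMSO + OHT. Both OHT libraries were above both controls, the means differed 1.53-fold, and the log2 change was 0.59 ± 0.08 (SE, n = 2 per group, limma adjusted p = 0.000158). This order of the libraries held for 22 of the 38 tested members and 40.8% of all tested genes, and the reverse for 2 members and 23.9%.

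Psmd7, the lid partner of the deubiquitinase Psmd14, had 13.2 and 12.2 RPKM in DMSO and 17.3 and 16.4 with OHT, a log2 change of 0.38 ± 0.06 (limma adjusted p = 0.000677). Psmd12, another lid subunit, had 16.1 and 14.4 RPKM in DMSO and 19.8 and 18.5 with OHT, a log2 change of 0.31 ± 0.07 (limma adjusted p = 0.00299). In both genes the gap between the groups was wider than the spread within either. Psmd9, a chaperone of the ATPase ring, had 5.71 and 5.61 RPKM in DMSO and 7.43 and 7.23 with OHT, a log2 change of 0.32 ± 0.07 (limma adjusted p = 0.00262). Psmd3, a lid subunit, had 11.3 and 9.41 RPKM in DMSO and 14.5 and 11.6 with OHT, a log2 change of 0.31 ± 0.10 (limma adjusted p = 0.0374). Here the lower OHT library was barely above the higher control.

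The calls of Psme3, Psmd7, Psmd9 and Psmd12 held with each library left out and under every other alternative. Those of Psmd3, Psmc4 and Psmd14 were lost without DMSO replicate 2 (limma adjusted p = 0.301, 0.22 and 0.124) and without DMSO + OHT replicate 1 (0.333, 0.221 and 0.133), and under both other scalings. That of Psma3 was lost without DMSO + OHT replicate 1 (0.0506). The count of 8 became 5 without DMSO replicate 2, 4 without DMSO + OHT replicate 1 and 16 without DMSO + OHT replicate 2. With median-ratio scaling 5 members were higher and 2 lower, and with quantile normalization 6 were higher and 2 lower; the 2 lower members were Psmd10 and Psme4 in both.

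**Figure D2:**
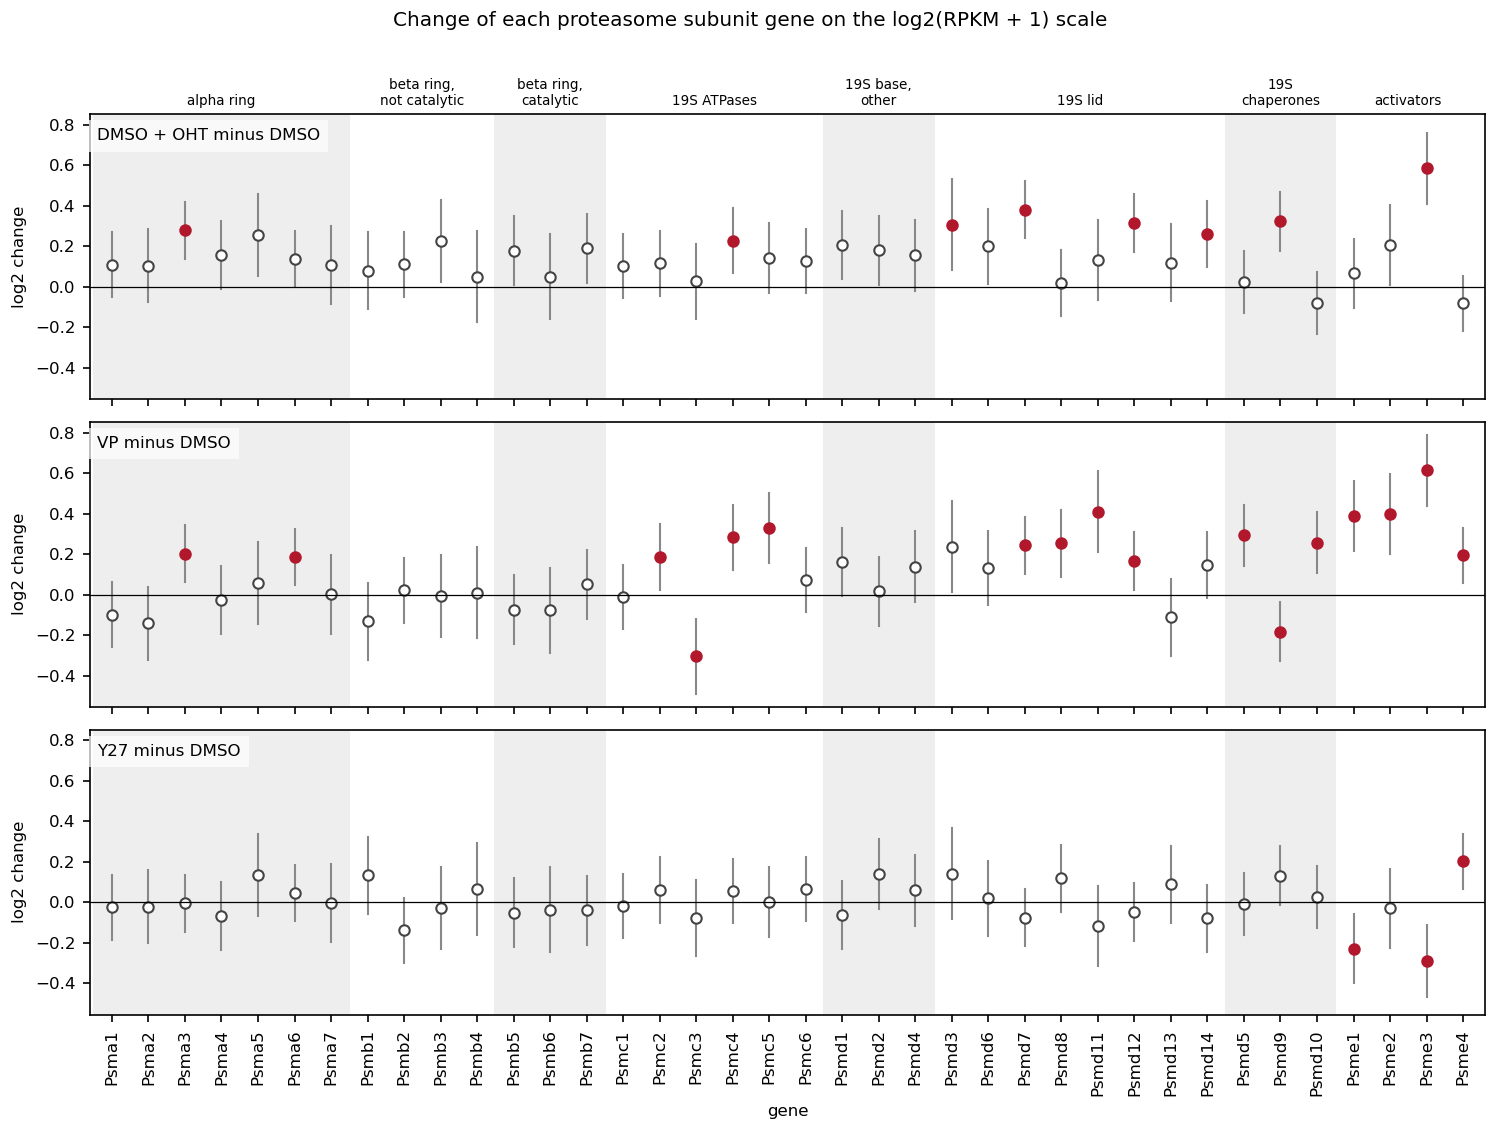
Change of the 38 tested genes on the log2(RPKM + 1) scale for DMSO + OHT minus DMSO, VP minus DMSO and Y27 minus DMSO, as points with 95% confidence intervals of the limma fit, filled where the adjusted p was under 0.05. With OHT 8 points are filled, all above 0; with VP 17, of which 15 are above 0; with Y27 3, all of them activators.

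Under VP without OHT all 4 activators, part of the lid and 2 of the 3 chaperones were higher, while no beta subunit passed without rescaling. Of the 38 members 17 passed, or 44.7%, 15 as higher and 2 as lower. Of all tested genes 67.7% passed, 26.9% as higher and 40.8% as lower. The median log2 change was 0.13 over the members and −0.08 over all genes. Higher were 4 of 8 lid subunits (Psmd7, Psmd8, Psmd11 and Psmd12), 3 of 6 ATPases (Psmc2, Psmc4 and Psmc5), 2 of 7 alpha subunits (Psma3 and Psma6) and the chaperones Psmd5 and Psmd10. Lower were the ATPase Psmc3 and the chaperone Psmd9. None of the 7 tested beta subunits and none of the 3 other base subunits passed on RPKM as deposited with all 12 libraries. The scaling moved these counts: with median ratios 21 members were higher and 1 lower, and with quantile normalization 22 were higher and 2 lower. Under both scalings the lid subunits Psmd3, Psmd6 and Psmd14, the base subunits Psmd1 and Psmd4 and the ATPase Psmc6 were also higher, and with quantile normalization the beta subunits Psmb4 (limma adjusted p = 0.0473) and Psmb1 (0.0337) passed as higher and lower. The comparisons of OHT, VP and Y27 with DMSO all use the same 2 DMSO libraries.

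Psme3 had 23.0 and 24.6 RPKM in VP, beside the 16.6 and 13.9 of DMSO, a log2 change of 0.61 ± 0.08 (limma adjusted p = 1.79e-05). Psme1 and Psme2 together build the activator PA28, which interferon gamma induces in many cells. Psme1 had 30.4 and 28.4 RPKM in DMSO and 36.5 and 41.2 in VP, a log2 change of 0.39 ± 0.08 (limma adjusted p = 0.000696). Psme2 had 19.6 and 18.9 RPKM in DMSO and 24.4 and 27.03 in VP, a log2 change of 0.40 ± 0.09 (limma adjusted p = 0.00165). The partners were higher to a like degree, 1.32-fold and 1.33-fold by their means, and in none of the 3 genes did the groups overlap. Both VP libraries lay above both DMSO libraries in 19 of the 38 tested members and 34.6% of all tested genes. Both lay below in 4 members and 48.2% of all tested genes.

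Psmd11 had 3.98 and 4.07 RPKM in DMSO and 5.66 and 5.69 in VP, a log2 change of 0.41 ± 0.09 (limma adjusted p = 0.00142), the largest in the 19S particle. Psmc5, an ATPase of the base, had 26.9 and 23.5 RPKM in DMSO and 30.6 and 33.3 in VP, a log2 change of 0.33 ± 0.08 (limma adjusted p = 0.00246). In Psmd11 the libraries of a group nearly coincided, and in Psmc5 they were farther apart without overlapping.

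The ATPase Psmc3 and the chaperone Psmd9 fell under VP. Psmc3, whose tail helps to open the gate of the core, had 34.7 and 32.2 RPKM in DMSO and 26.0 and 27.9 in VP, and fell by 0.30 on the log2 scale (SE 0.09, limma adjusted p = 0.00656). An exon of Slc39a13, which codes for a zinc transporter, overlaps Psmc3 by 97 bases on the opposite strand in the GENCODE annotation. Slc39a13 had 30.4 and 29.0 RPKM in DMSO and 10.6 and 10.5 in VP, and its part in the values of Psmc3 was not tested. Psmd9 had 5.71 and 5.61 RPKM in DMSO and 5.03 and 4.71 in VP, and fell by 0.18 (SE 0.07, limma adjusted p = 0.028). With median-ratio scaling its adjusted p was 0.182 and with quantile normalization 0.367.

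The calls of Psme1, Psme2, Psme3, Psmd5, Psmd11 and Psmc5 under VP held with each library left out and under every other alternative. Psmc3 lost its call without DMSO replicate 1 (limma adjusted p = 0.0546) and without VP replicate 1 (0.0562). Psmd9 lost its call without DMSO replicate 1 (0.0954), DMSO replicate 2 (0.0636) and VP replicate 2 (0.164). Psme4 lost its call without DMSO replicate 1 (0.0533) and VP replicate 2 (0.119), and Psmd10 without DMSO replicate 2 (0.0529). The calls of Psmd12 (0.0407) and Psmc2 (0.0429) were each lost in 11 of 19 alternatives, among them no filter (0.0502 and 0.0709) and the fit of 8 libraries (0.0717 and 0.0662). Psma3, Psma6, Psmc4, Psmd7 and Psmd8 lost theirs without VP replicate 2 (0.14, 0.0854, 0.0565, 0.052 and 0.102), and Psma3, Psma6 and Psmd8 also without DMSO replicate 2. The count of 17 became 11 without DMSO replicate 2 and 9 without VP replicate 2.

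**Figure D3:**
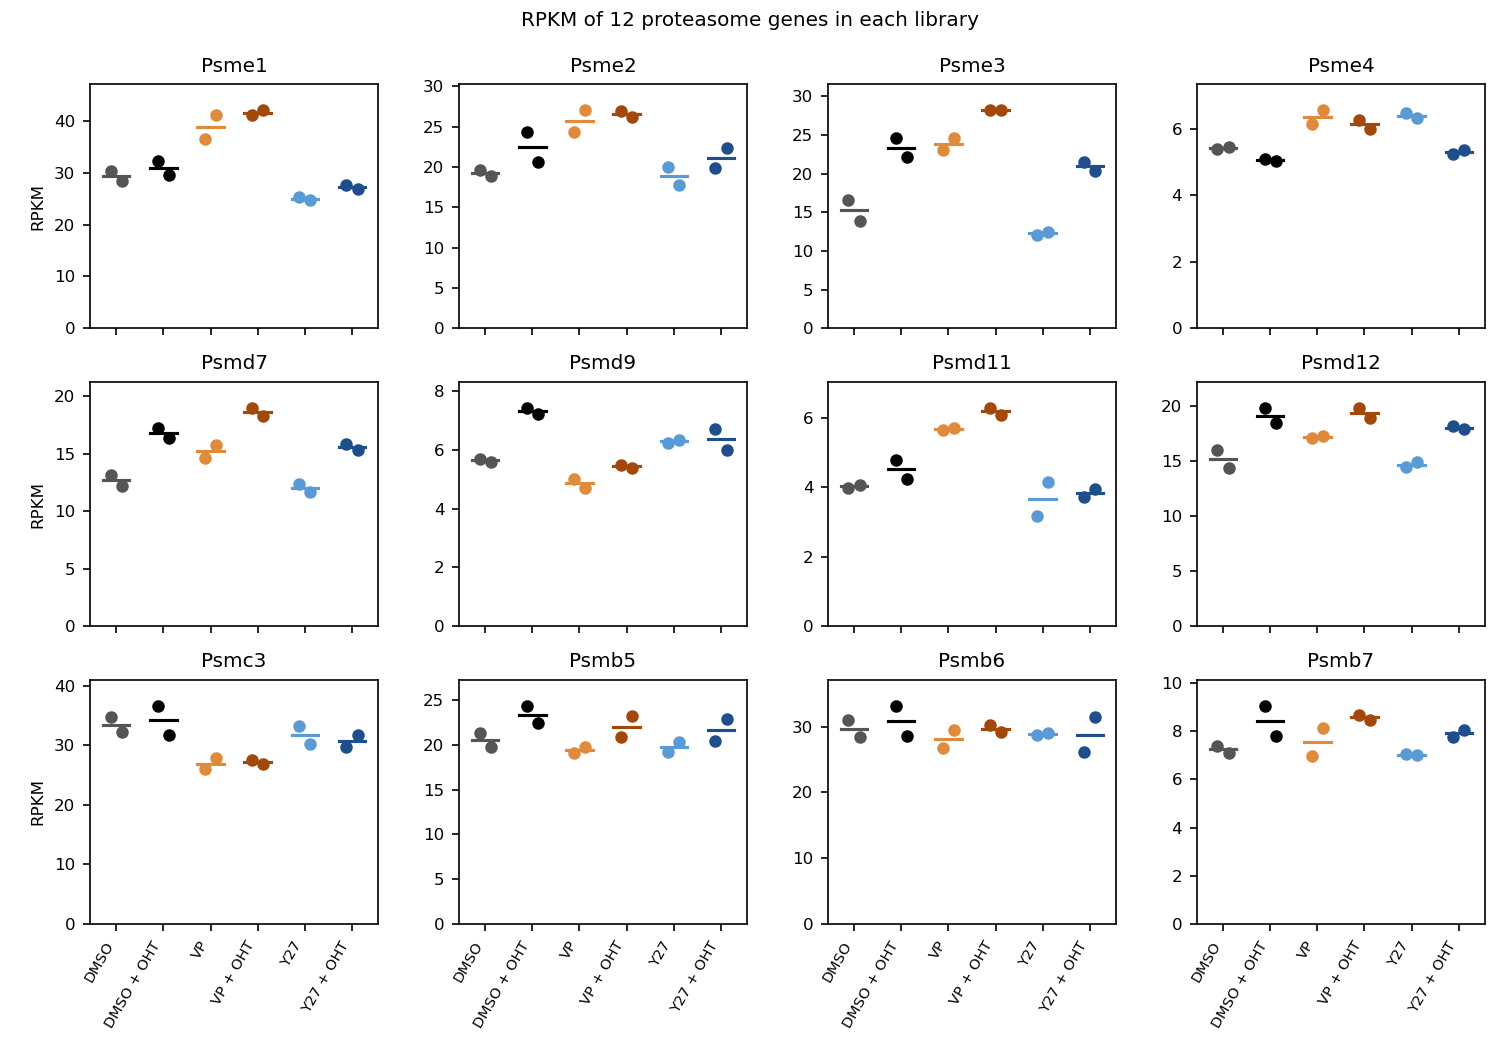
RPKM of 12 proteasome subunit genes in each library (points), with the mean of the 2 libraries of a group (line); every axis starts at 0. Psme1, Psme2, Psme3 and Psmd11 are higher in each VP group than in the DMSO group with the same OHT, and Psmd7 and Psmd12 are higher in each OHT group than in its partner. Over the 12 libraries Psmb5 runs from 19.1 to 24.3 RPKM, Psmb6 from 26.2 to 33.1 and Psmb7 from 6.97 to 9.04.

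With OHT present, VP + OHT against DMSO + OHT gave 13 of 38 members, or 34.2%, 10 higher and 3 lower, beside 64.5% of all genes, 25.4% as higher and 39.1% as lower. Psmd10, a chaperone of the base also known as gankyrin, had 6.18 and 6.23 RPKM in DMSO + OHT and 8.94 and 9.60 in VP + OHT, a log2 change of 0.51 ± 0.07 (limma adjusted p = 2.75e-05). The 4 activators were again all higher, from 0.23 for Psme4 to 0.42 for Psme1 on the log2 scale, and Psmd11 was higher by 0.38. Psme3, at 24.6 and 22.1 RPKM in DMSO + OHT and 28.2 in both VP + OHT libraries, changed by 0.26 ± 0.08 (limma adjusted p = 0.0118). Psmd9 was lower, at 7.43 and 7.23 RPKM in DMSO + OHT and 5.48 and 5.40 in VP + OHT, and fell by 0.37 (SE 0.07, limma adjusted p = 0.000297). Psmc3 fell by 0.32 and the lid subunit Psmd13 by 0.21, the latter with a limma adjusted p of 0.0483 that all 7 alternatives other than a left-out library moved past the threshold (0.0512 to 0.254), as did 10 of the 12 left-out libraries. Psmc3 lost its call without DMSO + OHT replicate 1 (log2 change −0.22). The overlapping Slc39a13 had 28.3 and 25.7 RPKM in DMSO + OHT and 9.76 and 10.1 in VP + OHT, and its part was not tested. Among the higher members, Psma6 lost its call in 11 of 19 alternatives and Psmc5 in 4. Psme2 lost its call with no filter (0.0773), without DMSO + OHT replicate 2 (0.274; log2 change 0.12 in place of 0.24) and without either VP + OHT library (0.129 and 0.0799), and Psme4 without VP + OHT replicate 1 (0.0553). Psme3 lost its call without DMSO + OHT replicate 2 (0.0917) and without either VP + OHT library (0.051 and 0.0509). Leaving out replicate 1 of VP + OHT brought the count of 13 to 7, leaving out its replicate 2 brought it to 8, and median-ratio scaling gave 18 higher and 2 lower.

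Under Y27 without OHT 3 of the 4 activators passed, and no member of the core or the 19S particle did on RPKM as deposited with all 12 libraries. These 3 are 7.89% of the 38 members, beside 50.6% of all tested genes, 17.1% as higher and 33.5% as lower. Psme3 had 12.1 and 12.4 RPKM in Y27, beside 16.6 and 13.9 in DMSO, and fell by 0.29 on the log2 scale (SE 0.08, limma adjusted p = 0.00982). Psme1 had 25.2 and 24.6 RPKM in Y27, beside 30.4 and 28.4, and fell by 0.23 (SE 0.08, limma adjusted p = 0.0285). Its partner Psme2 did not pass, with 20.0 and 17.8 RPKM in Y27 and 19.6 and 18.9 in DMSO, which overlap. Psme4, a large activator made of a single chain, had 6.46 and 6.32 RPKM in Y27 and 5.40 and 5.44 in DMSO, a log2 change of 0.20 ± 0.06 (limma adjusted p = 0.0161).

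None of the 3 calls held with each library left out. Without DMSO replicate 1 the adjusted p was 0.116 for Psme3, 0.156 for Psme1 and 0.0603 for Psme4, and Psmd13 alone passed (0.0339). Without Y27 replicate 1 it was 0.056, 0.0843 and 0.0661, and no member passed. Psme1 also lost its call without Y27 replicate 2 (0.13) and with median-ratio scaling (0.0612). Median-ratio scaling gave 6 members higher and 1 lower, and added the core members Psma6 (0.0397) and Psmb1 (0.0497) and the 19S members Psmd2 (0.0158), Psmd8 (0.0183) and Psmd9 (0.0136). Quantile normalization gave 3 higher and 4 lower, with Psmd9 (0.0015) and Psmd10 (0.04) added as higher and Psma4 (0.00639) and Psmc3 (0.00237) as lower. The median log2 change of the members was −0.01 as deposited, 0.06 with median ratios and −0.03 with quantile normalization, so its sign was set by the scaling. With OHT present, Y27 + OHT against DMSO + OHT gave 1 member, or 2.63%, beside 43.1% of all genes, 10.2% as higher and 32.9% as lower. This was Psmd9, at 6.72 and 6.01 RPKM in Y27 + OHT and 7.43 and 7.23 in DMSO + OHT, and it fell by 0.18 (SE 0.07, limma adjusted p = 0.0468). It was lost in most alternatives: the count was 0 without any of 8 libraries, namely either DMSO, VP or VP + OHT library, DMSO + OHT replicate 1 or Y27 + OHT replicate 2, and it was 2 without DMSO + OHT replicate 2 or either Y27 library. With median ratios Psme4 passed instead, as higher, and with quantile normalization 2 members were higher and 3 lower. In this comparison the scalings moved the median of all genes by 0.11 on the log2 scale.

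The changes of the members were spread less widely than those of all genes, which is given as a description with no test. The SD of the log2 changes was 0.13 over the members and 0.29 over all tested genes for OHT in DMSO, 0.19 and 0.66 for VP, and 0.10 and 0.39 for Y27. Members are on average more highly expressed than other genes. Reads per base also had a ceiling: 1 gene of 1000 bases or more went above 2 in any library. The part of either in this narrower spread was not tested.

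**Figure D4:**
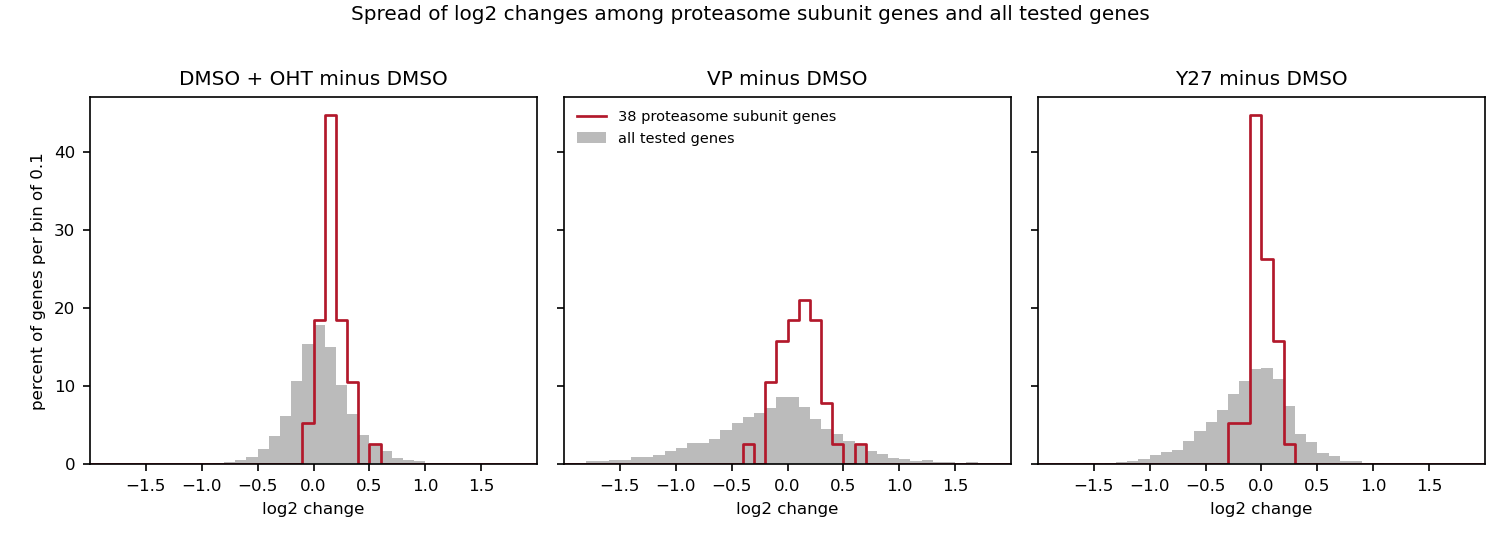
Percent of genes per bin of 0.1 of the log2 change for the 38 tested proteasome subunit genes (line) and all 11104 tested genes (bars) in 3 comparisons with DMSO. The line is narrower than the bars in each panel, with SDs of 0.13 for OHT, 0.19 for VP and 0.10 for Y27.

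The response to OHT was also measured within each inhibitor. In VP, Psmd7 alone passed, as higher, or 2.63% of members beside 5.79% of all genes (5.30% higher, 0.486% lower). It had 14.7 and 15.8 RPKM in VP and 18.96 and 18.3 in VP + OHT, a log2 change of 0.27 ± 0.06 (limma adjusted p = 0.0271). The call was lost without any of the VP or VP + OHT libraries (0.0758 to 0.182) and with both other scalings (0.105 and 0.0665). Psme3 had 23.0 and 24.6 RPKM in VP and 28.2 in both VP + OHT libraries, which did not pass.

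In Y27 4 members passed, or 10.5%, 3 as higher and 1 as lower, beside 31.7% of all genes (19.9% higher, 11.8% lower). Psme3 had 12.1 and 12.4 RPKM in Y27 and 21.5 and 20.4 in Y27 + OHT, a 1.71-fold difference and a log2 change of 0.73 ± 0.08 (limma adjusted p = 2.17e-05). Psmd7 was higher by 0.35 ± 0.06 (limma adjusted p = 0.00112), at 12.3 and 11.7 RPKM without and 15.8 and 15.3 with OHT. Psmd12 was higher by 0.28 ± 0.07 (limma adjusted p = 0.00609), at 14.4 and 14.9 RPKM without and 18.2 and 18.0 with OHT. These 3 calls held in every alternative. Psme4 fell by 0.23 (SE 0.06, limma adjusted p = 0.0137), from 6.46 and 6.32 RPKM to 5.23 and 5.37, and lost its call without Y27 + OHT replicate 1 (0.0726) or Y27 replicate 1 (0.0575).

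Whether the OHT response differed between backgrounds was tested as an interaction, and no member passed. For VP 0 of 38 passed beside 4.02% of all genes (1.46% higher, 2.56% lower), and 2 had an unadjusted limma p under 0.05. These were Psme3, whose OHT response was smaller in VP than in DMSO by 0.35 on the log2 scale (95% interval of the difference −0.60 to −0.10, limma adjusted p = 0.122), and Psmd10 (difference 0.25, limma adjusted p = 0.19). Psme3 passed with median ratios (0.0372), with quantile normalization (0.0151) and without DMSO replicate 1 (0.0368), and Psmd10 with quantile normalization (0.0429). For Y27 0 of 38 passed beside 0.0811% of all genes (0.0630% higher, 0.0180% lower), and 1 had an unadjusted limma p under 0.05: Psmd9, with a difference of −0.31 (95% interval −0.52 to −0.11, limma adjusted p = 0.316). For Psme3 the OHT response in Y27 minus that in DMSO was 0.14 (95% interval −0.11 to 0.39, limma adjusted p = 0.732).

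The inhibitors were also set against each other, although their doses differ. Between VP and Y27 without OHT 16 members passed, or 42.1%, 13 higher in VP and 3 lower, beside 70.4% of all genes (34.4% higher, 36.0% lower). Psme3 differed most, by 0.90 ± 0.08 on the log2 scale, 1.94-fold (limma adjusted p = 4.09e-07). Psme1 followed with 0.62 ± 0.08 and Psmd11 with 0.53 ± 0.09. The 3 lower members were Psmd9 (−0.31), Psmc3 (−0.23) and Psmb1 (−0.27), a noncatalytic beta subunit with 24.99 and 27.1 RPKM in VP and 32.3 and 30.7 in Y27 and the only beta subunit called on RPKM as deposited with all 12 libraries. With quantile normalization Psmb4 passed as higher in VP (0.000935), and with median ratios Psmb2 did (0.0247). Without VP replicate 1 or Y27 replicate 1 the calls of Psmb1 (0.114 and 0.0957) and Psmc3 (0.166 and 0.213) were lost, that of Psmc3 also with no filter (0.0598), and the count of 16 became 10 without VP replicate 2. With OHT 13 members passed, or 34.2%, 12 higher and 1 lower, beside 66.3% of all genes (34.5% higher, 31.7% lower). Psme1 (0.59), Psmd11 (0.57) and Psmd10 (0.50) led, and quantile normalization gave 16 higher and 5 lower. The 1 lower member was Psmd9 (−0.19), whose call was lost in 3 of 18 alternatives. That of Psmc4 (limma adjusted p = 0.0498) was lost in 10 and that of Psme4 in 5.

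Over these 9 comparisons of groups, which share libraries, there were 76 calls of members, and 16 of the 38 were never called. The 76 calls are 22.2% of the tests of members, beside 48.2% over all tested genes. The activators had 21 calls in 36 tests, or 58.3%, and the chaperones 14 in 27, or 51.9%, both near the share of all genes. The lid had 21 in 72, or 29.2%, and the ATPases 12 in 54, or 22.2%. The alpha ring had 6 calls, from Psma3 and Psma6, the noncatalytic beta subunits 1, the catalytic ones 0 and the other base subunits 1, from Psmd1, or at most 9.52% of the tests of any of these roles. Of the 76 calls, 34 held in every alternative, and none changed sign.

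Members were also read beside their promoter letters. Under VP 2 of the 6 tested members with an ARE core (Psmd12 and Psme4) were higher and 1 (Psmd9) lower, with a median log2 change of −0.0005, while 12 of 26 members with a window and no core were higher, with a median of 0.15. With OHT in DMSO 2 of the 3 members with an E-box passed, Psme3 and Psmd9, as did 4 of the 29 with a window and none. The calls of Psmd3 and Psmd7 with OHT, and of Psmd7 and Psmc3 under VP, are left out because these genes had no window. Of all tested genes, with or without a motif, 24.1% were higher with OHT and 26.9% under VP. These groups are small, and no difference between them was tested.

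Other genes of the ubiquitin-proteasome system were counted from lists, to be read beside the shares of all tested genes, which were 24.1% higher and 9.97% lower for OHT in DMSO, 26.9% and 40.8% for VP, and 17.1% and 33.5% for Y27. The chaperones that build the core, Psmg1 to Psmg4, all rose with OHT in DMSO, by 0.55, 0.71, 0.81 and 0.57 on the log2 scale, and 4 of the 6 genes of the list of assembly factors and inhibitor passed. For Psmg3 the levels were 9.08 and 7.96 RPKM in DMSO and 16.3 and 15.1 with OHT. Under VP 5 of these 6 were higher, and under Y27 3 were lower, Psmg1, Psmg2 and the inhibitor Psmf1. Of 13 proteins that bind the proteasome, such as the deubiquitinases Uchl5 and Usp14, 6 were higher with OHT and 9 with VP, while under Y27 1 was higher and 2 lower. Uchl5 had 2.24 and 2.21 RPKM in DMSO, 3.996 and 4.43 in DMSO + OHT and 3.94 and 3.81 in VP. Of 6 genes for ubiquitin and the E1 enzymes that activate it, none passed under VP, while Uba6 was higher with OHT and lower with Y27. Of 5 genes of the p97 complex, which extracts ubiquitinated proteins, Ufd1l was higher and Faf2 lower under VP, and none passed with OHT in DMSO.

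Of 9 regulators, 4 were higher under VP. Nfe2l2 had 8.22 and 7.52 RPKM in DMSO and 24.5 and 26.5 in VP, a 3.24-fold difference and a log2 change of 1.58 ± 0.07 (limma adjusted p = 6.73e-10). Maff, a small partner of the Nfe2l factors, had 7.53 and 5.20 RPKM in DMSO and 33.8 and 35.1 in VP, a 5.41-fold difference. The other partners Mafg (0.95) and Mafk (0.89) were higher on the log2 scale too. Nfe2l1 itself had 27.4 and 24.4 RPKM in DMSO and 27.3 and 27.2 in VP, and did not pass. The immunoproteasome subunit Psmb10 had 13.7 and 12.7 RPKM in DMSO, 28.3 and 30.9 in VP and 7.67 and 7.41 in Y27, with log2 changes of 1.11 under VP (limma adjusted p = 9.91e-09) and −0.73 under Y27 (limma adjusted p = 2.33e-06). Psmb8 and Psmb9 were under the minimum for a test, with Psmb8 at 0.456 to 0.595 RPKM in the 4 libraries with VP and at most 0.0289 in the others.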

How the data were processed

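The authors sequenced total RNA libraries made with the TruSeq RNA kit without poly(A) selection. Per the submitters' notes, TopHat2 2.0.8, SAMtools, featureCounts 1.4.5-p1 and DESeq2 were used with build mm9, and the versions of SAMtools and DESeq2 are not given in the sources used here. The deposited table holds RPKM per gene and library. The decimal sign is missing from 46.43% of its 260052 values, those of 1 or more. The sign was restored from whole reads and, for 28 members, also from GENCODE M21 gene lengths. The authors' mean normalized counts, the only other deposited columns used, served as a check of the digits. They also moved the sign of 432 genes, none of them members. The deposited columns of fold changes and p-values were not used.

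The 11104 genes that averaged 0.5 RPKM or more were tested with limma 3.58.1 in R 4.3.3 on log2(RPKM + 1), in 1 fit of 6 groups with 6 residual degrees of freedom, a mean-variance trend, two-sided, with Benjamini-Hochberg adjustment and a threshold of 0.05. The pseudocount lowers the changes of low genes. Fold differences are ratios of mean RPKM. Alternatives were median-ratio scaling, quantile normalization, a pseudocount of 0.1, no filter, a replicate block, decimal places set for the smallest spread, fits of 8 libraries, and each library left out.

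Named genes were the catalytic subunits, the 5 members with the largest change among those past the threshold, members past it against the majority, the highest and lowest of each role, and members under the minimum; other names were chosen after their values were seen. Members and lists were chosen with earlier results of these data known. Promoter windows came from RefSeq (GRCm38.p6), a different build from the files, and were used for their letters only.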

Additional observations from a re-analysis of the deposited data

How the results depend on the processing

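Of 76 counts of members under alternatives other than leaving out a library, 64 were within 1.5 times the count as reported. With median-ratio scaling the count was 0 for OHT in VP (reported 1), 20 for VP with OHT (reported 13), 7 for Y27 without OHT (reported 3) and 1 for the OHT response in VP minus in DMSO (reported 0). With quantile normalization it was 0 for OHT in VP, 20 for VP with OHT, 7 for Y27 without OHT, 13 for OHT in Y27 (reported 4), 5 for Y27 with OHT (reported 1), 2 for the OHT response in VP minus in DMSO, and 21 for VP minus Y27 with OHT (reported 13). In the fit of the 8 DMSO and Y27 libraries it was 0 for Y27 with OHT. The cause was not tested. With each library left out in turn the count ran from 4 to 16 for OHT in DMSO, 9 to 19 for VP without OHT, 0 to 1 for OHT in VP, 7 to 15 for VP with OHT, 0 to 3 for Y27 without OHT, 4 to 6 for OHT in Y27, 0 to 2 for Y27 with OHT, 0 to 1 for the OHT response in VP minus in DMSO, 0 to 0 for that in Y27, 10 to 17 for VP minus Y27 without OHT and 9 to 14 with OHT. Of the 76 single calls 34 held in every alternative, 26 were lost only when a library was left out, and 0 changed sign. The deviations of same-numbered libraries had correlations of −0.221 to 0.279 over the pairs of groups, highest for DMSO with DMSO + OHT, and not every pair was over 0.1, so the numbers were not taken to pair the libraries. With the replicate block the counts were 9 for OHT in DMSO, 17 for VP without OHT, 1 for OHT in VP, 11 for VP with OHT, 3 for Y27 without OHT, 4 for OHT in Y27, 1 for Y27 with OHT, 0 for both interactions, and 16 and 12 for VP minus Y27 without and with OHT; 4 single calls were lost with it. With 2 libraries per group, a leave-one-out fit assumes that the lone library varies like the other groups.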
